A study of Mus musculus with 17 samples.

Results

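The collagen gene family was examined in bulk RNA sequencing of sorted mouse brain cells and cortex. Its members were all gene symbols of the deposited count table made of Col, a number, the letter a and a second number, which gave 44 of 21640 genes. They were chosen by name and not by level. The groups were 6 samples of EGFP+ arteriolar smooth muscle cells (aSMCs) from SMACreER:Ai47 mice (Ai47 aSMCs, replicates 1 to 6), 2 samples of tdTomato+ aSMCs from SMACreER:Ai14 mice (Ai14 aSMCs, replicates 7 and 8), 3 samples of tdTomato+ astrocytes from hGFAPCreER:Ai14 mice, and 6 samples of cortex homogenate labelled wild type. According to the methods of the study, the mice of the aSMC sort were adult and had received tamoxifen 1 month earlier, parenchymal vessels were enriched, CD31+ and CD45+ cells were gated out, and the cortex was a fraction of the dissociated tissue taken before sorting. This account of the cortex differs from its wild-type label, and which of them holds is not known here. No source used here gives the age of the Ai14 and astrocyte animals. In SMACreER mice the smooth muscle actin promoter drives the recombinase, and other mural cells can use this promoter. In hGFAPCreER mice the human GFAP promoter drives it. The Ai47 and Ai14 aSMCs therefore differ in reporter allele and sorted colour, and also in sequencing depth.

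The total count was 41499087 to 53643624 in Ai47 aSMCs, 14870507 and 14979228 in Ai14 aSMCs, 4537137 to 7390630 in astrocytes and 5397905 to 7288036 in cortex. Mitochondrial genes took 0.214% to 0.559% of counts in Ai47 aSMCs, 16.8% and 17.6% in Ai14 aSMCs, 10.7% to 12.5% in astrocytes and 35.7% to 72.9% in cortex. Levels are therefore given in CPM, counts per 1000000 of the library total after TMM scaling over all 17 libraries, and levels of different genes are compared only in CPM per kilobase of exon. The summed level of 9 smooth muscle markers was 6085 to 7331 CPM in Ai47 aSMCs, 9633 and 10450 CPM in Ai14 aSMCs, 55.0 to 152 CPM in astrocytes and 41.6 to 172 CPM in cortex, and that of 7 pericyte markers was 2917 to 5990, 6735 and 9909, 8.78 to 17.5, and 242 to 704 CPM in the same order of groups. The 9 fibroblast markers summed to 1.09 to 19.4 CPM in Ai47 aSMCs, 1.46 and 3.39 CPM in Ai14 aSMCs, 0.806 to 15.7 CPM in astrocytes and 6.42 to 30.7 CPM in cortex. The 10 astrocyte markers summed to 1186 to 1892 CPM in Ai47 aSMCs, 177 and 252 CPM in Ai14 aSMCs, 1259 to 1914 CPM in the sorted astrocytes and 3396 to 18474 CPM in cortex, with Gjb6 at 0 in the sorted astrocytes, where 2 of 10 markers were higher and 2 lower than in cortex. The 5 ependymal markers summed to 744 to 1360 CPM in these astrocyte samples and to 0 to 6.13 CPM in cortex, and all 5 were higher in the astrocyte samples. The markers of the labelled type thus did not set these samples above cortex, and they are called astrocytes here as in the labels.

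Collagens are secreted proteins in which chains wind into a triple helix. Fibrillar collagens such as type I, built from Col1a1 and Col1a2 chains, form the tensile fibres of the adventitia and other connective tissue, whereas type IV collagen forms the sheet-like network of the basement membrane that surrounds smooth muscle cells and capillaries. Most basement membranes contain Col4a1 and Col4a2, the kidney glomerulus contains Col4a3, Col4a4 and Col4a5, and smooth muscle is a known site of Col4a5 and Col4a6. The genes of type IV collagen lie in head-to-head pairs whose partners are transcribed away from each other.

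By textbook class, the 44 members comprised 11 fibrillar collagens, 8 basement membrane collagens (the 6 type IV genes with Col15a1 and Col18a1) and 25 others. In Ai47 aSMCs, 3 members averaged at least 100 CPM (Col1a1, Col1a2 and Col4a3), 9 lay between 10 and 100 CPM, 6 between 1 and 10 CPM and 22 below 1 CPM, and 4 had no count in any library. In Ai14 aSMCs the corresponding numbers were 3 (Col4a1, Col4a2 and Col8a1), 6, 11, 21 and 3. In astrocytes they were 0, 2 (Col8a1 and Col8a2), 4, 23 and 15. In cortex they were 0, 2 (Col4a1 and Col4a2), 17, 21 and 4. At least 1 CPM in every library was reached by 12 members in Ai47 aSMCs, 18 in Ai14 aSMCs, 0 in astrocytes and 5 in cortex. A total of 3 counts over a whole group, which is the limit that a count of 0 allows, equals a mean of 0.0213 CPM in Ai47 aSMCs, 0.0455 in Ai14 aSMCs, 0.0780 in astrocytes and 0.0688 in cortex, and covers counting error only.

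**Figure D1:**
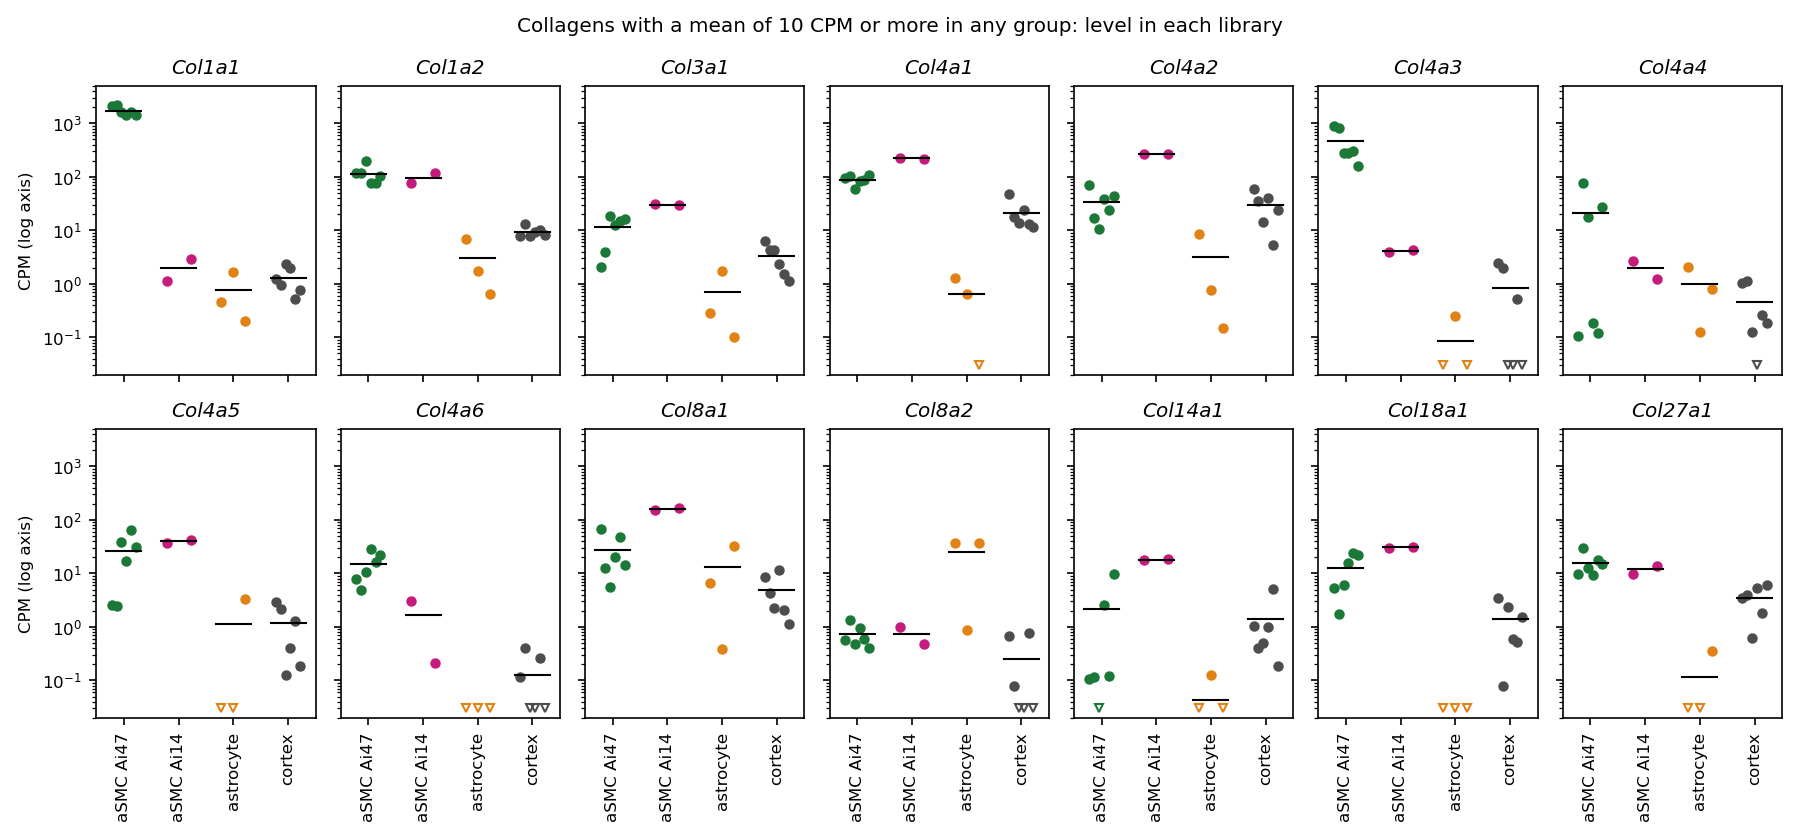
Levels of the 14 collagens with a mean of at least 10 CPM in any group, in CPM after TMM scaling on a log axis, with 1 point per library, an open triangle for a count of 0 and a line at the group mean. Col1a1 lies between 1434 and 2247 CPM in Ai47 aSMCs and at most at 2.88 CPM in every library of the other groups.

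Per kilobase of exon, the summed collagen level averaged 355.5 ± 84.5 CPM per kb in Ai47 aSMCs (SD, n = 6), 120.4 ± 2.97 in Ai14 aSMCs (n = 2), 9.50 ± 6.79 in astrocytes (n = 3) and 14.2 ± 5.27 in cortex (n = 6). These levels rest on TMM factors of 0.423 to 0.551 in Ai47 aSMCs and 2.21 in both Ai14 libraries. Before this scaling, collagen counts per library were 55708 to 65006 in Ai47 aSMCs and 29514 and 31169 in Ai14 aSMCs. As a share of the unscaled library total they were higher in both Ai14 libraries than in every Ai47 library. Collagen counts were 733, 102 and 1639 in astrocyte replicates 1 to 3 and 209 to 1452 in the cortex libraries. The family shares of the smallest of these libraries rest on few counts. Fibrillar collagens held 72.4% to 84.2% of the summed level in CPM per kb in the Ai47 aSMC libraries (median 79.4%), 9.85% and 12.8% in Ai14 aSMCs, 5.79%, 38.2% and 2.01% in astrocytes, and 10.4% to 31.6% in cortex (median 17.7%). Basement membrane collagens held 15.1% to 25.5% in Ai47 aSMCs (median 18.9%), 69.6% and 65.9% in Ai14 aSMCs, 13.7%, 13.5% and 4.15% in astrocytes, and 39.5% to 72.6% in cortex (median 58.1%). The 2 aSMC groups thus did not overlap in either share. Col1a1 alone made up 69.9% to 78.2% of the collagen sum in Ai47 aSMCs, and Col4a3 5.73% to 19.99%. With both genes left out of the sum, the fibrillar share was 21.2% to 46.6% in Ai47 aSMCs against 9.75% and 12.6% in Ai14 aSMCs, and the basement membrane share was 47.7% to 68.0% in Ai47 aSMCs against 66.0% and 69.6% in Ai14 aSMCs.

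**Figure D2:**
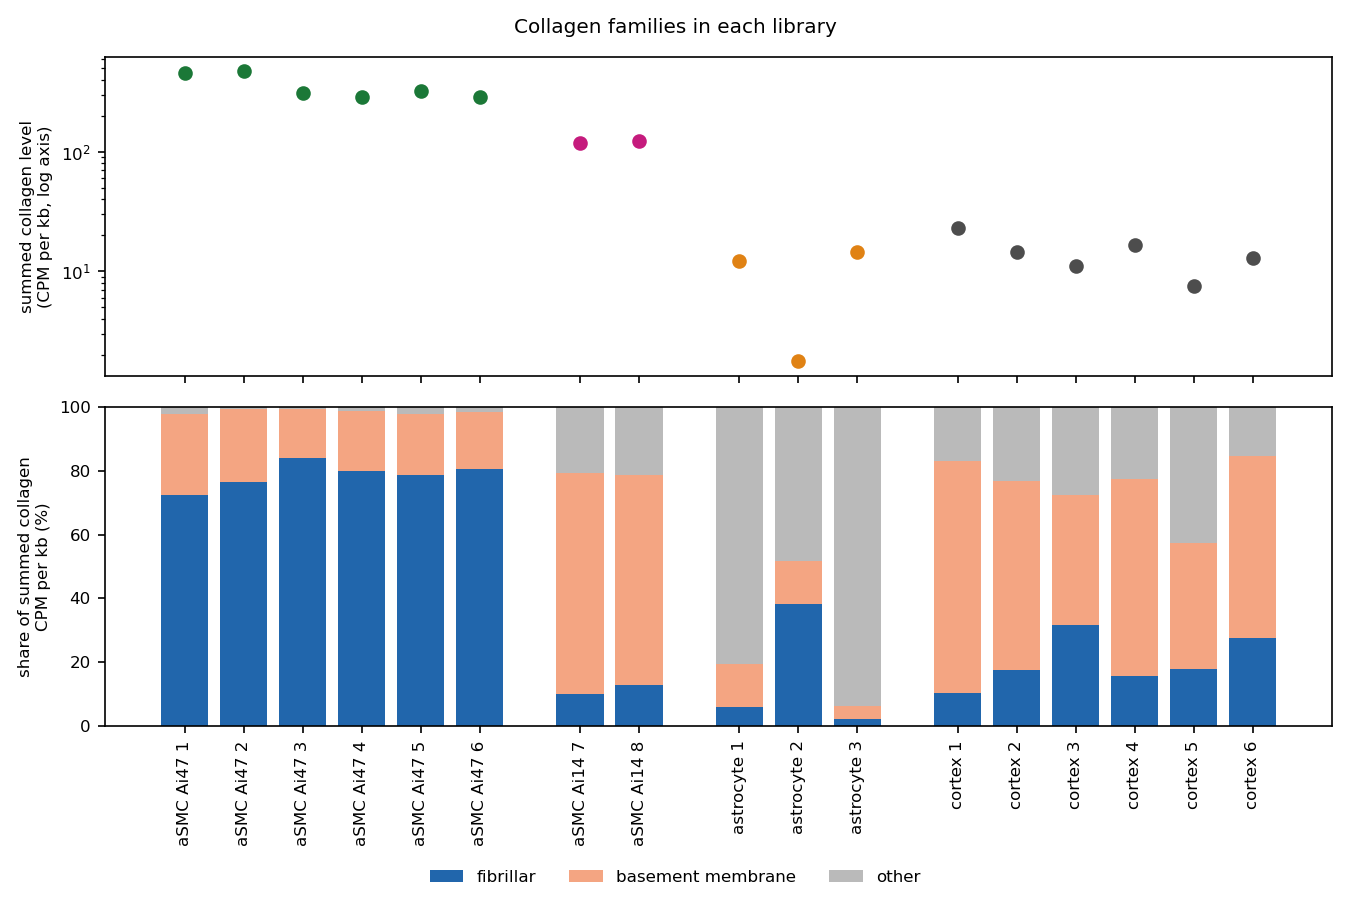
Summed collagen level (CPM per kb of exon, log axis, above) and the share of it in percent held by fibrillar, basement membrane and other collagens (below) in each of the 17 libraries. Fibrillar collagens hold 72.4% to 84.2% in the Ai47 aSMC libraries, and basement membrane collagens hold 69.6% and 65.9% in the Ai14 aSMC libraries.

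The first comparison asked which collagens were higher in sorted Ai47 aSMCs than in cortex homogenate. Of the 44 members, 15 passed the filter on low counts in these 12 libraries. Of these 15, 11 were higher in Ai47 aSMCs, where 33.6% of all 11548 genes tested were higher, and 0 were lower, where 25.0% of all genes were lower (edgeR quasi-likelihood test, adjusted p under 0.05). DESeq2 also called 11 higher and 0 lower, and 0 were lower at an unadjusted p under 0.05. Over all 11548 genes, DESeq2 called 4136 higher and 3111 lower. The calls fell on 5 fibrillar collagens (Col1a1, Col1a2, Col3a1, Col5a2 and Col27a1), 5 basement membrane collagens (Col4a1, Col4a3, Col4a5, Col4a6 and Col18a1) and Col8a1. The median log2 fold change was 2.61 over the 15 members tested, beside 0.32 over all genes tested. A member could pass the filter through the group where it was high, so this median describes only those that passed. Among the members called, the Ai47 and cortex libraries did not overlap for Col1a1, Col1a2, Col4a1, Col4a3, Col4a6 and Col27a1, and over all genes tested 25.4% lay higher in Ai47 aSMCs without overlap. With all 17 libraries in 1 fit, which tests 30 members, 5 were lower in Ai47 aSMCs (Col9a3, Col11a1, Col15a1, Col23a1 and Col24a1), and 3 were lower without cortex replicate 5 and 2 without cortex replicate 6. Over all genes, 3951 of 14927 were lower in the fit of 17 libraries. The numbers were 2993 of 12757 without cortex replicate 5 and 2982 of 12700 without cortex replicate 6. When libraries were scaled by their totals alone, 5 members stayed higher (Col1a1, Col1a2, Col4a3, Col4a5 and Col4a6) and none of the others called changed sign.

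In Ai14 aSMCs, 8 of the 30 members tested were higher than in cortex, beside 3.97% of all 14927 genes tested, and 0 were lower, beside 2.0% of all genes. At an unadjusted p under 0.05, 12 were higher and 3 lower, and DESeq2 called 7 higher and 3 lower. Over all 14927 genes, DESeq2 called 504 higher and 1600 lower. The share of all genes at the unadjusted limit is not given here. The 8 higher members were 4 basement membrane collagens (Col4a1, Col4a2, Col4a5 and Col18a1), the fibrillar Col1a2 and Col5a1, and Col8a1 and Col28a1. With 1 Ai14 library left, assumed to vary like the other groups, the number called fell to 2 without replicate 7 and to 0 without replicate 8, and it was 3 to 5 when any 1 cortex library was left out. The median log2 fold change over the members tested was 1.75, beside 0.32 over all genes tested. In astrocytes, 1 of 30 members was higher than in cortex, beside 14.6% of all genes, and 9 were lower, beside 19.8% of all genes. The median here was -3.00 over the members tested, beside -0.08 over all genes. For this median and that of Ai14 aSMCs, a member could pass the filter through any group, also one outside the contrast. Both medians therefore describe only the members that passed. With the astrocyte and cortex libraries alone, 14 members passed. Fold changes of members without counts in astrocytes depend on the fit. The labels do not say that samples of a group came from separate animals. A legend of the study gives 6 mice each for the sorted aSMCs and the cortex. No such number was found for the Ai14 aSMCs and the astrocytes. These p-values measure the spread between the samples given, which may be technical.

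**Figure D3:**
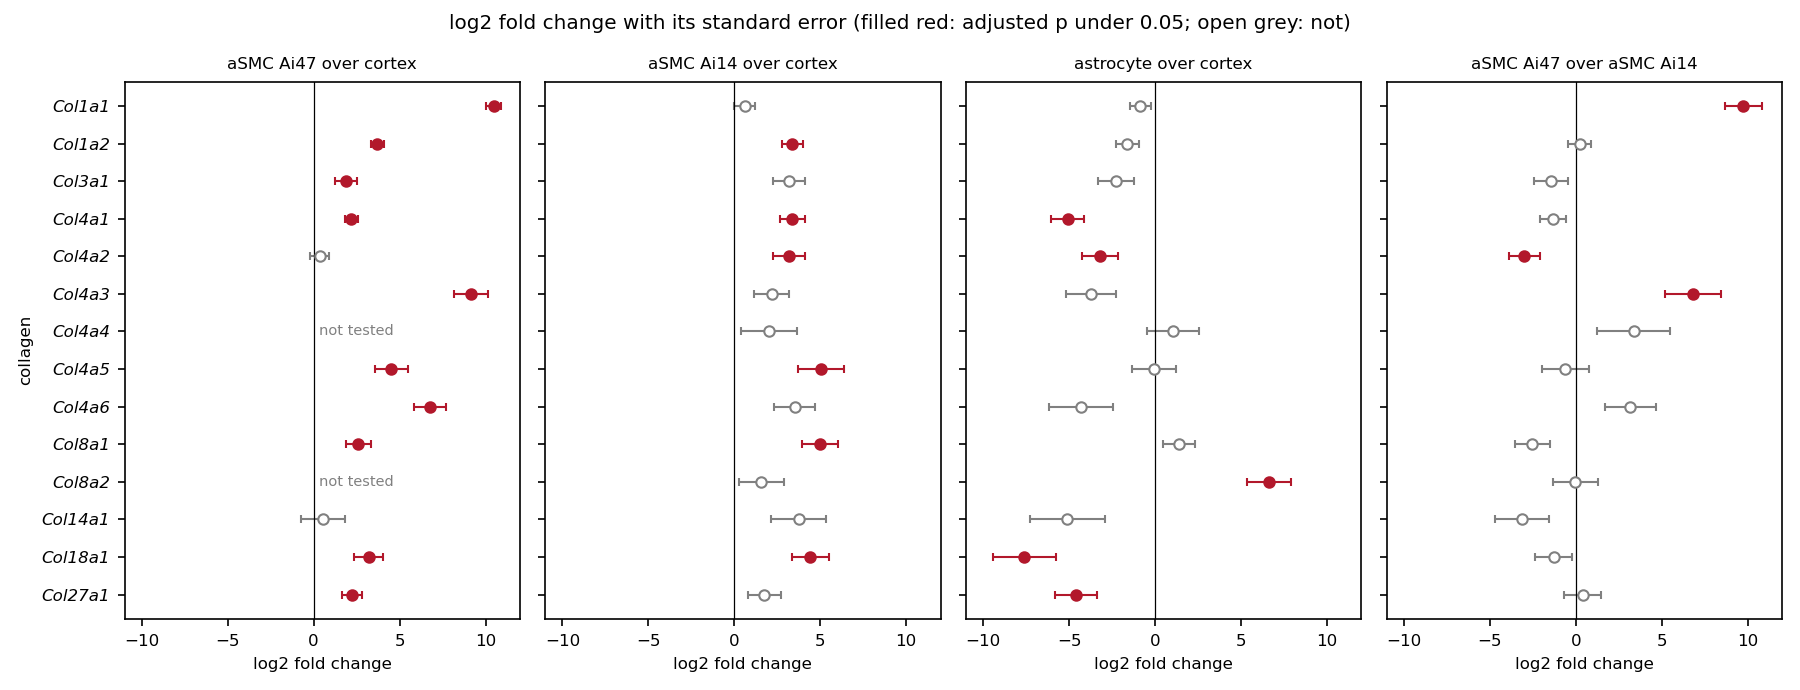
Log2 fold changes with standard errors of the 14 collagens with a mean of at least 10 CPM in any group, for Ai47 aSMCs over cortex, Ai14 aSMCs over cortex, astrocytes over cortex and Ai47 over Ai14 aSMCs, where values of genes without counts in a group depend on the fit. Filled red points have an edgeR adjusted p under 0.05, as for Col1a1 (10.47) and Col4a3 (9.15) in Ai47 aSMCs over cortex.

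Col1a1 and Col1a2 encode the chains of type I collagen, the main fibril of connective tissue. Col1a1 (chr11:94936224-94953042, GRCm38) had 1434 to 2247 CPM in the Ai47 aSMC libraries (median 1600), 1.12 and 2.88 CPM in Ai14 aSMCs, 0.467, 1.65 and 0.202 CPM in astrocytes, and 0.516 to 2.37 CPM in cortex (median 1.104). Every Ai47 library stood far above every library of the other groups, and those other groups overlapped. The log2 fold change against cortex was 10.47 in Ai47 aSMCs (SE 0.45, edgeR adjusted p = 2.72e-11), 0.60 in Ai14 aSMCs (SE 0.61, adjusted p = 0.66) and -0.85 in astrocytes (SE 0.61, adjusted p = 0.294). Per kilobase of exon, Col1a1 was the highest collagen in Ai47 aSMCs, at 265 CPM per kb. Its raw counts were nearly the same in all 6 Ai47 libraries, as given further on, and with these libraries entered as 1 its adjusted p was 4.57e-07 (log2 fold change 10.59, SE 0.87).

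The partner gene Col1a2 (chr6:4504814-4541544) was high in both aSMC groups. It had 75.4 to 195 CPM in Ai47 aSMCs (median 109), 76.8 and 118 CPM in Ai14 aSMCs, 6.82, 1.77 and 0.655 CPM in astrocytes, and 7.73 to 12.9 CPM in cortex (median 8.71). The aSMC groups overlapped each other and did not overlap cortex. The log2 fold change against cortex was 3.71 in Ai47 aSMCs (SE 0.36, edgeR adjusted p = 2.04e-07) and 3.38 in Ai14 aSMCs (SE 0.62, adjusted p = 0.00161; 0.102 without replicate 8). Ai47 replicate 3 was the highest, at 195 CPM, and also had the highest sum of fibroblast markers, at 19.4 CPM, with Pdgfra at 0 in all Ai47 libraries; the part of such cells in its value was not tested. Fewer cells of a type and less RNA per cell cannot be told apart in bulk samples. In CPM per kb, Col1a1 made up 94.0% to 97.6% of the Col1a1 and Col1a2 sum in Ai47 aSMCs, 2.70% and 4.42% in Ai14 aSMCs and 8.85% to 36.7% in cortex.

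Type III collagen, encoded by Col3a1, assembles with type I in distensible tissue such as the vessel wall. Col3a1 had 2.09 to 18.4 CPM in Ai47 aSMCs (median 13.8), 31.1 and 29.5 CPM in Ai14 aSMCs, 0.280, 1.77 and 0.101 CPM in astrocytes, and 1.134 to 6.27 CPM in cortex (median 3.31). Ai47 replicates 1 and 2, at 2.09 and 3.93 CPM, lay inside the cortex range, and both Ai14 libraries lay above every other library. For Ai47 aSMCs over cortex the log2 fold change was 1.87 (SE 0.64, edgeR adjusted p = 0.0192, and 0.0613 with all 17 libraries in 1 fit), and that of Ai14 aSMCs over cortex was 3.18 (SE 0.96, adjusted p = 0.0529). Col27a1, a fibrillar collagen of cartilage and other tissues, had 9.24 to 30.2 CPM in Ai47 aSMCs (median 13.8), 9.76 and 14.02 CPM in Ai14 aSMCs, 0, 0 and 0.353 CPM in astrocytes, and 0.623 to 6.05 CPM in cortex (median 3.71). It was higher in Ai47 aSMCs than in cortex, with no overlap (log2 fold change 2.24, SE 0.60, adjusted p = 0.00429), and lower in astrocytes than in cortex (-4.61, SE 1.21, adjusted p = 0.0066). Among the chains of type V collagen, which regulates fibril diameter, Col5a2 had 0.608 to 32.6 CPM in Ai47 aSMCs (median 1.72) and 0 to 3.42 CPM in cortex (median 0.524), so that the groups overlapped, and its Ai47 mean of 7.20 CPM was 2.13 CPM without replicate 2. Its log2 fold change was 2.91 (SE 1.18, adjusted p = 0.0432, and 0.025 to 0.0756 when 1 cortex library was left out), and it no longer passed the filter without any 1 of the Ai47 libraries. Col5a1 averaged 4.31 CPM in Ai14 aSMCs and 0.235 CPM in cortex (4.16, SE 1.22, adjusted p = 0.047, and 0.0343 to 0.446 when 1 library was left out). For Col3a1, Col5a2 and Col27a1 the call in Ai47 aSMCs was lost when libraries were scaled by their totals alone.

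Col4a1 and Col4a2 encode the chains of the common type IV network and lie on chromosome 8 with 5' ends that overlap by 22 bases. Col4a1 (chr8:11198423-11312826, minus strand) had 58.8 to 107 CPM in Ai47 aSMCs (median 90.9), 226 and 217 CPM in Ai14 aSMCs, 1.31, 0.633 and 0 CPM in astrocytes, and 11.3 to 47.5 CPM in cortex (median 15.6). Both aSMC groups lay above all cortex libraries, and astrocytes lay below them. The log2 fold change against cortex was 2.18 in Ai47 aSMCs (SE 0.38, edgeR adjusted p = 0.000116), 3.38 in Ai14 aSMCs (SE 0.74, adjusted p = 0.00709; 0.108 without replicate 7 and 0.112 without replicate 8) and -5.07 in astrocytes (SE 0.95, adjusted p = 0.000539). Col4a2 (chr8:11312805-11449287, plus strand) had 10.5 to 70.5 CPM in Ai47 aSMCs (median 31.6), 273 and 266 CPM in Ai14 aSMCs, 8.69, 0.760 and 0.151 CPM in astrocytes, and 5.42 to 58.1 CPM in cortex (median 30.0). The Ai47 and cortex ranges overlapped almost fully, and their log2 fold change of 0.34 (SE 0.55, adjusted p = 0.617) became -1.28 when libraries were scaled by their totals alone. The other contrasts of Col4a2 were 3.18 for Ai14 aSMCs over cortex (SE 0.91, adjusted p = 0.0406, and 0.0685 to 0.316 when any 1 library was left out) and -3.22 for astrocytes over cortex (SE 1.04, adjusted p = 0.0216, and 0.0591 without astrocyte replicate 2).

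In CPM per kb, Col4a1 made up 54.1% to 84.5% of the sum of both partners in Ai47 aSMCs (median 72.3%), 41.9% and 42.3% in Ai14 aSMCs, and 29.2% to 68.3% in cortex (median 38.1%). Cortex replicate 1 had the most Col4a1 of its group, at 47.5 CPM. The 10 endothelial markers, whose cells also produce these chains, summed to 118 to 258 CPM in Ai47 aSMCs, 221 and 251 CPM in Ai14 aSMCs, 25.7 to 42.3 CPM in astrocytes and 353 to 1108 CPM in cortex; cortex replicate 1 stood at 503 CPM, and the part of endothelial cells in the cortex level was not tested. In astrocytes, replicate 1 had both the most Col4a2 (8.69 CPM) and the highest fibroblast marker sum (15.7 CPM).

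Col4a3 and Col4a4 form the next pair, best known from the kidney glomerulus, where mutations in them cause Alport syndrome. They are transcribed away from each other on chromosome 1 with 71 bases between their annotated starts (chr1:82586850-82586920). This interval is shown because the partners on either side of it had very different levels in Ai47 aSMCs. It is the RefSeq sequence of GRCm38.p6, read 5' to 3' on the minus strand, toward Col4a4, and it held none of the motifs searched:
Col4a4-Col4a3 interval: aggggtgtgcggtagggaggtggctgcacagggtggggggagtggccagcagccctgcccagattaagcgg

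Col4a3 (chr1:82586921-82722059, plus strand) had 163 to 912 CPM in Ai47 aSMCs (median 296), 3.89 and 4.24 CPM in Ai14 aSMCs, 0, 0.253 and 0 CPM in astrocytes, and 0 to 2.51 CPM in cortex (median 0.258). All Ai47 libraries lay above all others, and replicates 1 and 2 (912 and 819 CPM) above the remaining 4. The log2 fold change against cortex was 9.15 in Ai47 aSMCs (SE 0.97, edgeR adjusted p = 5.72e-07), 2.16 in Ai14 aSMCs (SE 1.03, adjusted p = 0.242) and -3.74 in astrocytes (SE 1.46, adjusted p = 0.0518). With 46.2 CPM per kb it ranked just below Col1a1 among the collagens of Ai47 aSMCs. Of its exon bases, 5.65% are shared with C430014B12Rik on the annotation, and no source used here states whether the counting used strand. Col4a4 (chr1:82448423-82586849, minus strand) had 0.105, 78.0, 18.1, 0.184, 0.121 and 27.9 CPM in Ai47 replicates 1 to 6, 2.71 and 1.24 CPM in Ai14 aSMCs, 2.06, 0.127 and 0.806 CPM in astrocytes, and 0 to 1.11 CPM in cortex (median 0.224). Ai47 replicates 2, 3 and 6 were thus high and replicates 1, 4 and 5 were at the cortex level, a 685-fold range of raw counts within 1 group, from 2 to 1369. Col4a4 did not pass the filter for Ai47 aSMCs over cortex. Col4a3 made up 86.2% to 99.99% of the CPM per kb of this pair in Ai47 aSMCs, and 60.5% and 78.4% in Ai14 aSMCs.

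Col4a5 and Col4a6 lie head to head on the X chromosome, 1308 bases apart, and encode chains found in smooth muscle basement membranes. Col4a5 (chrX:141475385-141689234, plus strand) had 2.51 to 64.2 CPM in Ai47 aSMCs (median 24.2), 36.4 and 42.7 CPM in Ai14 aSMCs, 0, 0 and 3.38 CPM in astrocytes, and 0.125 to 2.96 CPM in cortex (median 0.843). Ai47 replicates 1 and 2, the libraries with the most Col4a3, had the least Col4a5 (2.62 and 2.51 CPM) and lay within the cortex range. Its log2 fold change over cortex was 4.52 in Ai47 aSMCs (SE 0.95, edgeR adjusted p = 0.000623) and 5.03 in Ai14 aSMCs (SE 1.34, adjusted p = 0.0291, and 0.0456 to 0.194 when 1 library was left out). Col4a6 (chrX:141165403-141474076, minus strand) had 4.84 to 28.7 CPM in Ai47 aSMCs (median 13.6), 3.10 and 0.212 CPM in Ai14 aSMCs, 0 CPM in all 3 astrocyte libraries, and 0 to 0.398 CPM in cortex (median 0.0570). All Ai47 libraries lay above all others (log2 fold change over cortex 6.77, SE 0.92, adjusted p = 8.56e-06), while the Ai14 libraries lay on both sides of the highest cortex value (3.52, SE 1.20, adjusted p = 0.096). Col4a5 made up 28.3% to 82.1% of the CPM per kb of the pair in Ai47 aSMCs, and 93.3% and 99.6% in Ai14 aSMCs.

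**Figure D4:**
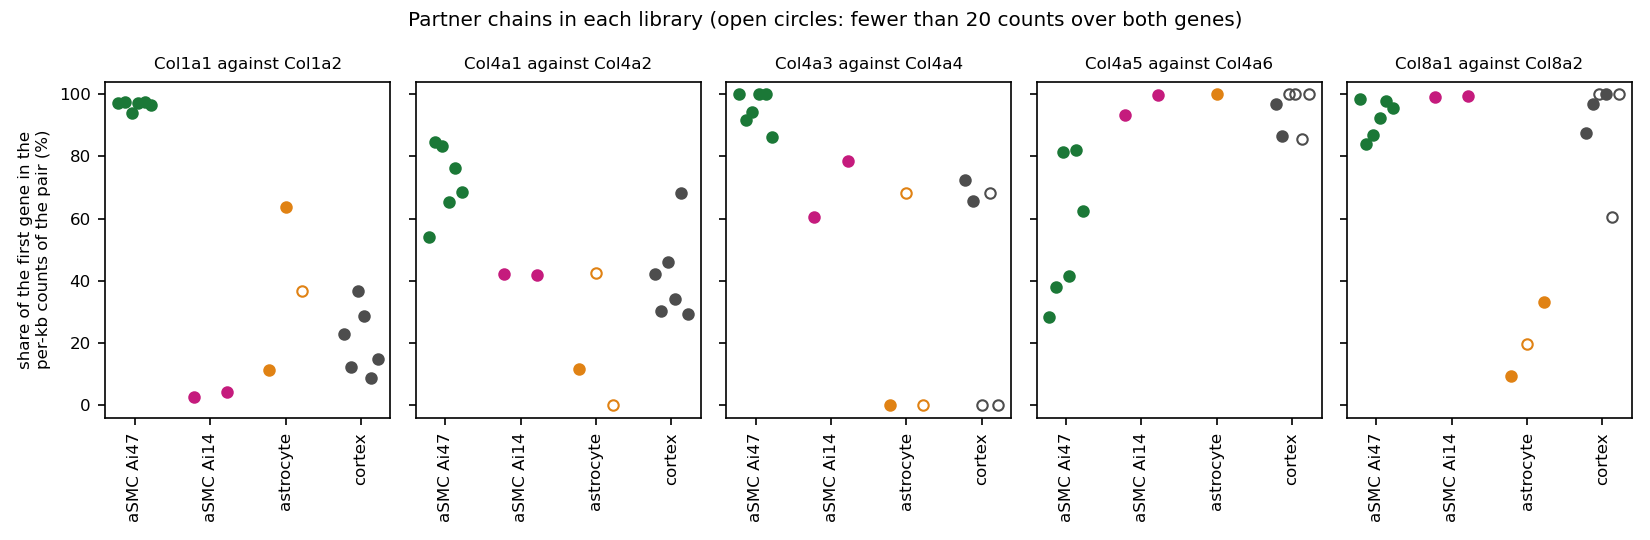
Share of the first-named gene in the CPM per kb of a partner pair, in percent, with 1 point per library and open circles where both genes together had under 20 counts. Col1a1 holds 94.0% to 97.6% of its pair in Ai47 aSMCs against 2.70% and 4.42% in Ai14 aSMCs.

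The remaining basement membrane members, Col15a1 and Col18a1, encode collagens that bridge the basement membrane to the matrix beyond and carry endostatin-like fragments at their ends. Col18a1 had 1.77 to 23.8 CPM in Ai47 aSMCs (median 10.8), 30.1 and 31.1 CPM in Ai14 aSMCs, no count in 3 astrocyte libraries, and 0.0795 to 3.42 CPM in cortex (median 1.05). Both Ai14 libraries lay above all others, and only Ai47 replicate 2 (1.77 CPM) lay within the cortex range. It was higher in Ai47 aSMCs than in cortex (log2 fold change 3.19, SE 0.84, edgeR adjusted p = 0.00386), higher in Ai14 aSMCs (4.42, SE 1.07, adjusted p = 0.0171; 0.138 without replicate 7, 0.164 without replicate 8 and 0.0516 without cortex replicate 5), and at least 18.5-fold lower in astrocytes (adjusted p = 0.00408). With the astrocyte and cortex libraries fitted alone, Col18a1 did not pass the filter on low counts. Col15a1 showed a placement opposite to that of Col18a1. It had no count in the 6 Ai47 and the 3 astrocyte libraries, 4 and 37 counts in Ai14 aSMCs, and 115 counts in cortex, which makes it at least 124-fold lower in Ai47 aSMCs than in cortex, untested because it did not pass the filter there, and at least 33.8-fold lower in astrocytes (adjusted p = 0.0171).

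Col8a1 and Col8a2 encode the short chains of type VIII collagen, which forms hexagonal lattices in the vessel wall and in the Descemet membrane of the cornea. Col8a1 (chr16:57624258-57754737, minus strand) had 5.596 to 66.7 CPM in Ai47 aSMCs (median 17.3), 154 and 164 CPM in Ai14 aSMCs, 6.73, 0.380 and 31.9 CPM in astrocytes, and 1.134 to 11.7 CPM in cortex (median 3.31). The Ai14 libraries lay above all others, and Ai47 replicate 3 lay within the cortex range. The log2 fold change against cortex was 2.61 in Ai47 aSMCs (SE 0.73, edgeR adjusted p = 0.00547), 4.99 in Ai14 aSMCs (SE 1.03, adjusted p = 0.00453; 0.0625 without replicate 8) and 1.39 in astrocytes (SE 0.93, adjusted p = 0.257). Col8a2 (chr4:126286793-126314330, plus strand) was the highest collagen of the astrocyte samples per kilobase and low elsewhere. It had 0.400 to 1.37 CPM in Ai47 aSMCs (median 0.591), 1.003 and 0.484 CPM in Ai14 aSMCs, 36.9, 0.887 and 36.8 CPM in astrocytes, and 0 to 0.775 CPM in cortex (median 0.0398). Astrocyte replicates 1 and 3 stood far above all other libraries, and replicate 2, with 7 counts, stood just above the highest cortex library.

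Col8a2 was the only collagen called higher in astrocytes than in cortex (log2 fold change 6.62, SE 1.28, edgeR adjusted p = 0.000657). With the astrocyte and cortex libraries fitted alone, an alternative chosen after seeing the data, it did not pass the filter on low counts, and 0 members were called higher. The ependymal marker sum was 1002, 1360 and 744 CPM in astrocyte replicates 1 to 3, so that replicate 2, lowest in Col8a2, was highest in these markers; the part of such cells in the Col8a2 level was not tested. In CPM per kb, Col8a1 made up 83.9% to 98.5% of the pair in Ai47 aSMCs, 98.9% and 99.5% in Ai14 aSMCs and 9.46% to 33.2% in astrocytes.

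The sequences just before both annotated starts are shown because the partners had their highest mean in different groups, Col8a1 in Ai14 aSMCs and Col8a2 in astrocytes. They are RefSeq sequences of GRCm38.p6, 250 bases for Col8a1 (chr16:57754738-57754987, minus strand) and 249 bases for Col8a2 (chr4:126286544-126286792, plus strand), with GC boxes (GGGCGG, either strand) in capitals. Each holds 4 GC boxes, of which a pair overlaps in Col8a2:
Col8a1 upstream: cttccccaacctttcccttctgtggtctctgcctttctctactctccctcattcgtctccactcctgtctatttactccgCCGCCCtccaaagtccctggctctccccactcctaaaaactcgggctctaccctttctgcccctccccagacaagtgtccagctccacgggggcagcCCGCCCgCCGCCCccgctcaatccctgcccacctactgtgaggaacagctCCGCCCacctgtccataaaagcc
Col8a2 upstream: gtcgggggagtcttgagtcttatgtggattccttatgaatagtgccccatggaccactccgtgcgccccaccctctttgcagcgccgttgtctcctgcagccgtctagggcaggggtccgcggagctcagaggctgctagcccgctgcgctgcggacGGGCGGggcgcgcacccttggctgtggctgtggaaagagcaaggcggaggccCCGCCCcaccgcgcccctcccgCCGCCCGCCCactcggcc

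Promoter windows of 35 of the 44 members matched RefSeq entries, in 38 windows. A GC box lay in 60.53% of these windows and in 35.66% of all 32851 windows, a CCAAT box in 34.21% and 37.41%, TATAA in 18.42% and 24.87%, and the CArG box, named for serum response factor, in 2.63% and 1.63%. Both strands were searched, and a match describes letters in a window only.

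Of the other collagens, Col14a1, a fibril-associated collagen, had its highest levels in Ai14 aSMCs. It had 0 to 9.82 CPM in Ai47 aSMCs (median 0.118), 17.5 and 18.9 CPM in Ai14 aSMCs, 0, 0.127 and 0 CPM in astrocytes, and 0.189 to 5.16 CPM in cortex (median 0.743). Its log2 fold change of Ai14 aSMCs over cortex was 3.75 (SE 1.59, edgeR adjusted p = 0.186). Col28a1, a von Willebrand factor A domain collagen of peripheral nerve, had 2 counts over the 6 Ai47 libraries, 40 and 29 counts in Ai14 aSMCs and none in astrocytes and cortex. It was at least 15.2-fold higher in Ai14 aSMCs than in cortex (adjusted p = 0.0354, and 0.0579 to 0.266 when any 1 library was left out). With no count in cortex or astrocytes, it passed the filter through the Ai14 libraries, and DESeq2 did not call it (adjusted p = 0.6996). The fibril-associated Col12a1 averaged 4.03 CPM in Ai47 aSMCs, 6.34 CPM in Ai14 aSMCs, 0.363 CPM in astrocytes and 2.59 CPM in cortex. The type VI genes Col6a1 and Col6a2, chains of the beaded microfibrils around cells, averaged 0.870 and 1.93 CPM in Ai47 aSMCs (Col6a2 0.896 CPM without replicate 6), 0.682 and 2.85 CPM in Ai14 aSMCs, 0.0422 and 0.0590 CPM in astrocytes, and 0.479 and 1.06 CPM in cortex. These levels are low in every group.

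Several collagens were higher in cortex than in astrocytes. Col9a3, a chain of the fibril-associated type IX collagen, averaged 0.165 CPM in Ai47 aSMCs, 0.137 CPM in Ai14 aSMCs, 0.689 CPM in astrocytes and 3.97 CPM in cortex, with 6.07% of its exon bases shared with Tcfl5. Its difference between astrocytes and cortex was not called (log2 fold change -2.48, SE 1.51, edgeR adjusted p = 0.213), and the ranges overlapped. The fibrillar Col11a1 had no count in astrocytes and 116 in cortex, at least 34.1-fold lower in astrocytes (edgeR adjusted p = 0.00548). The fibrillar Col24a1 had no count in astrocytes or Ai47 aSMCs and 105 in cortex, 86 of them in replicate 6, at least 30.9-fold lower in astrocytes (adjusted p = 0.0331, and 0.0266 to 0.072 when 1 library was left out). Col6a2 had 2 counts in astrocytes and 39 in cortex, which is 17.2-fold higher in cortex (95% counting interval 4.45 to 147; adjusted p = 0.0381). The transmembrane collagen Col23a1 had 1 count in astrocytes and 29 in cortex, 25.6-fold higher in cortex (counting interval 4.24 to 1044; adjusted p = 0.0434). When 1 library was left out, the adjusted p reached 0.0939 for Col6a2 and 0.104 for Col23a1. The 9 members called lower in astrocytes were Col6a2, Col11a1, Col23a1 and Col24a1 with Col4a1, Col4a2, Col15a1, Col18a1 and Col27a1. With the astrocyte and cortex libraries fitted alone, Col4a1, Col11a1, Col15a1 and Col27a1 stayed lower. Col4a2 was then not called (edgeR adjusted p = 0.0651), and Col6a2, Col18a1, Col23a1 and Col24a1 did not pass the filter. With a replicate block added to that fit, only Col4a1 stayed lower. The members not named above averaged at most 1.97 CPM in any group. The highest of them were the fibrillar Col11a2, with 1.005 CPM in Ai47 aSMCs (0.268 without replicate 5), 0.0151 in Ai14 aSMCs, 0 in astrocytes and 1.97 in cortex (0.323 without replicate 3), Col20a1, with 1.77 CPM in astrocytes and 0.170 in cortex, and Col25a1, a transmembrane collagen of neurons, with 1.49 CPM in cortex (0.275 without replicate 6).

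The last comparison set the aSMCs of the 2 reporter lines side by side. Reporter, depth and mitochondrial share all differ between these groups and cannot be told apart. Of 30 members tested, 2 were higher in Ai47 than in Ai14 aSMCs, beside 9.55% of all 14927 genes, and 3 were lower, beside 16.0% of all genes. At an unadjusted p under 0.05, 3 were higher and 5 lower, and DESeq2 called 3 higher and 2 lower. Over all 14927 genes, DESeq2 called 2555 higher and 1925 lower. Higher were Col1a1 (log2 fold change 9.76, SE 1.06, edgeR adjusted p = 1.93e-06) and Col4a3 (6.82, SE 1.63, adjusted p = 0.00447; 0.0675 without Ai14 replicate 7 and 0.0591 without replicate 8). Lower were Col4a2 (-2.98, SE 0.91, adjusted p = 0.0199, and 0.0313 to 0.184 when 1 library was left out), Col15a1 and Col28a1. Col15a1, without a count in Ai47 aSMCs, was at least 29.2-fold lower there (adjusted p = 0.0121, and 0.206 without Ai14 replicate 8). Col28a1, with 2 counts in Ai47 aSMCs, was 73.6-fold higher in Ai14 aSMCs (95% counting interval 19.6 to 620; adjusted p = 0.0111, and 0.117 at most when 1 library was left out). DESeq2 did not call it here either (adjusted p = 0.412). For Col1a2 the difference was 0.22 (SE 0.69, adjusted p = 0.858), for Col4a1 -1.31 (SE 0.76, adjusted p = 0.222), and for Col8a1 -2.52 (SE 1.001, adjusted p = 0.0702). Scaling by library totals alone shifted the median of all genes by -2.18 on the log2 scale, called 14 of the 30 members lower beside 44.2% of all genes, and left Col1a1 and Col4a3 higher.

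The 6 Ai47 libraries differed from each other in an uneven way. Of the 28 members with counts in all 6, 5 had a highest raw count under 1.1 times the lowest, while the library totals differed by up to 1.29-fold. Among these was Col1a1, with 39417 to 40086 counts in each library. Col12a1 had 89 to 95 counts, and Col9a1, Col11a1 and Col23a1 had the same count in all 6 libraries. By contrast, the range of raw counts was 38.1-fold for Col5a2 and 36.1-fold for Col4a5. With a mean of at least 50 counts as the limit, 2 of 15 members (Col1a1 and Col12a1) and 127 of all 9016 genes showed such even counts across the Ai47 libraries, 10 of the 127 identical in all 6, against 0 of 6135 genes across the cortex libraries. A legend of the study gives 6 mice for the sorted aSMCs. Whether the 6 Ai47 libraries are independent of each other was not tested, and the SDs, SEs and p-values given for Ai47 aSMCs treat them as 6 separate samples. With the 6 Ai47 libraries entered as 1 library, Col1a1, Col1a2, Col4a3, Col4a5 and Col4a6 stayed higher than cortex, Col4a4 was added, and the other 6 calls were lost.

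**Figure D5:**
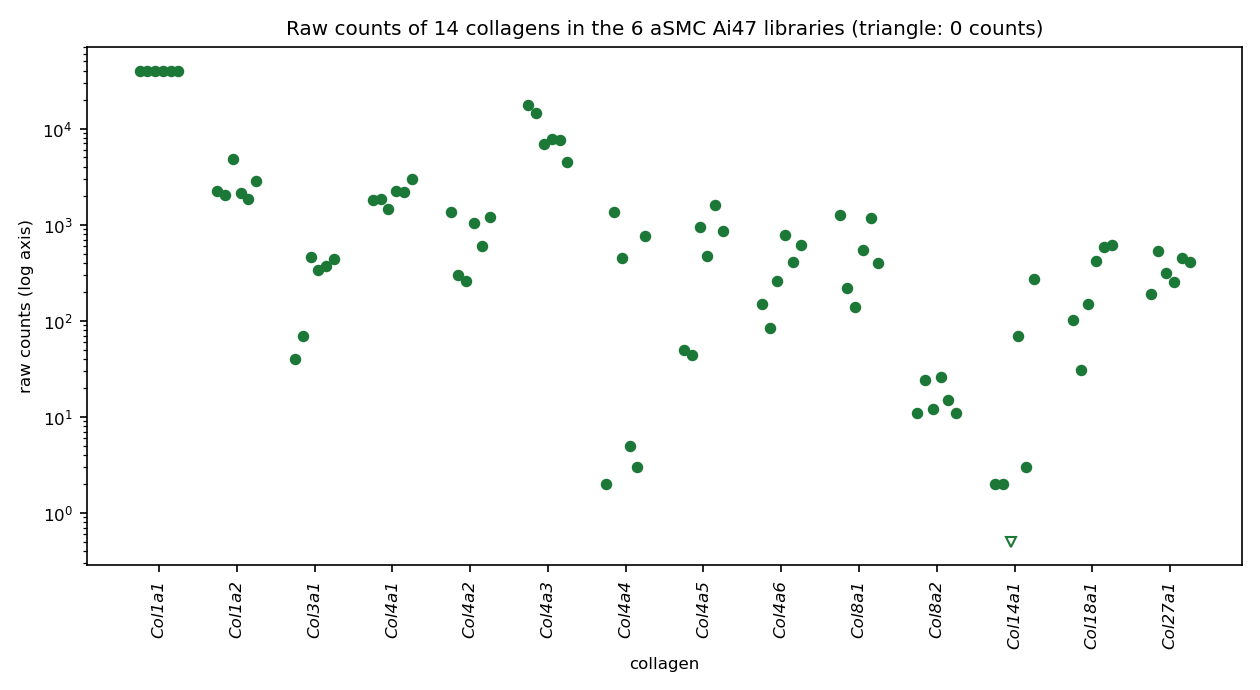
Raw counts of collagens in the 6 Ai47 aSMC libraries on a log axis, with 1 point per library and triangles for a count of 0. Col1a1 stays between 39417 and 40086 counts while Col4a4 spans 2 to 1369.

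The machinery that modifies, cuts, crosslinks and binds collagen was given by 6 lists with 54 genes. In Ai47 aSMCs, 36 passed the filter, of which 17 were higher than in cortex and 2 lower, beside 33.6% and 25.0% of all genes. In Ai14 aSMCs, 14 of 45 were higher and 0 lower, beside 3.97% and 2.0% of all genes. In astrocytes, 7 of 45 were higher and 8 lower, close to the 14.6% and 19.8% of all genes, and between Ai47 and Ai14 aSMCs 0 of 45 were higher and 8 lower, beside 9.55% and 16.0% of all genes. Among the 12 prolyl and lysyl hydroxylases, whose products stabilise the helix, 4 of 11 tested were higher and 1 lower in Ai47 aSMCs, a share of higher genes close to the 33.6% of all genes. P4hb, the shared subunit of prolyl 4-hydroxylase, averaged 183 ± 35.3 CPM in Ai47 aSMCs, 55.2 ± 5.81 in Ai14 aSMCs, 70.3 ± 47.7 in astrocytes and 21.8 ± 8.80 in cortex (log2 fold change of Ai47 aSMCs over cortex 3.16, SE 0.35, edgeR adjusted p = 1e-06). Its catalytic partner P4ha1 averaged 23.4 CPM in Ai47 aSMCs and 10.3 CPM in cortex (1.29, SE 0.47, adjusted p = 0.0278, and at most 0.0821 without Ai47 replicate 2 or cortex replicate 1). P3h3, a prolyl 3-hydroxylase, had 0.847 to 14.2 CPM in Ai47 aSMCs (median 1.66, and a mean of 4.26 CPM that was 2.27 CPM without replicate 5) and averaged 0.444 CPM in cortex (3.29, SE 1.096, adjusted p = 0.0166). P4ha3, another catalytic subunit, was lower, with 0.328 CPM in Ai47 aSMCs and 11.3 CPM in cortex (-5.00, SE 0.74, adjusted p = 2.03e-05).

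Of the 10 genes for collagen chaperones, glycosylation and export, 2 of 8 tested were higher in Ai47 aSMCs than in cortex, which is no larger a share than the 33.6% of all genes. Mia3, which loads procollagen into carriers at the endoplasmic reticulum, averaged 74.6 ± 41.9 CPM in Ai47 aSMCs and 14.2 ± 7.41 CPM in cortex (log2 fold change 2.50, SE 0.45, edgeR adjusted p = 0.00016), and the coat subunit Sec23a 40.6 and 17.3 CPM (1.30, SE 0.46, adjusted p = 0.0222, and 0.0652 without Ai47 replicate 5). Of the 10 procollagen proteinases and enhancers, 3 of 4 tested were higher in Ai47 aSMCs (33.6% of all genes) and 3 of 6 in Ai14 aSMCs (3.97% of all genes). Adamts2, a proteinase that trims the amino end of procollagen, averaged 7.99 CPM in Ai47 aSMCs, 6.02 in Ai14 aSMCs and 0.629 in cortex, and Adamts14, of the same kind, 7.20, 21.1 and 0.286 CPM. Pcolce, the enhancer of the carboxyl-end proteinase, averaged 12.01 CPM in Ai47 aSMCs, 20.6 in Ai14 aSMCs and 1.42 in cortex. In both aSMC groups all 3 were past the threshold, with adjusted p between 0.000162 and 0.0024 in Ai47 aSMCs and between 0.00983 and 0.0365 in Ai14 aSMCs. In Ai14 aSMCs each of the 3 calls was lost when either Ai14 library was left out. That of Adamts2 was also lost without any 1 cortex library, and that of Pcolce without cortex replicate 2, 3, 4 or 6.

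Lysyl oxidases crosslink fibrils, and 2 of 3 tested from a list of 5 were higher in Ai47 aSMCs than in cortex (33.6% of all genes). Lox averaged 28.0 ± 13.9 CPM in Ai47 aSMCs, 59.1 ± 14.3 in Ai14 aSMCs, 1.41 ± 2.44 in astrocytes and 2.02 ± 2.64 in cortex (log2 fold change over cortex 3.90 in Ai47 aSMCs, SE 0.68, edgeR adjusted p = 0.000118, and 4.83 in Ai14 aSMCs, SE 1.18, adjusted p = 0.0165, and up to 0.163 without 1 of the Ai14 libraries). Loxl2 averaged 15.03 CPM in Ai47 aSMCs and 2.85 CPM in cortex (2.53, SE 0.55, adjusted p = 0.000859), and Loxl3 24.2 and 5.17 CPM (2.28, SE 0.98, adjusted p = 0.0555). The list of small proteoglycans that bind fibrils held 7 genes, among them Tnxb, a larger matrix glycoprotein that did not pass the filter. Dcn and Lum were counted with the fibroblast markers and not here. Of the 7, 3 of 5 tested were higher in Ai47 aSMCs (33.6% of all genes) and 5 of 6 in Ai14 aSMCs (3.97% of all genes). Aspn averaged 301 ± 64.8 CPM in Ai47 aSMCs, 151 ± 12.8 in Ai14 aSMCs, 0 in astrocytes and 2.73 ± 2.01 in cortex (6.87 in Ai47 aSMCs over cortex, SE 0.66, adjusted p = 1.9e-07). Omd averaged 13.2 CPM in Ai47 aSMCs and 0.565 CPM in cortex (4.595, SE 1.03, adjusted p = 0.00108). Prelp averaged 39.0 ± 24.2 CPM in Ai47 aSMCs, 748 ± 64.4 in Ai14 aSMCs, 666 ± 209 in astrocytes and 26.6 ± 15.3 in cortex (Ai47 over Ai14 aSMCs -4.26, SE 0.62, adjusted p = 5.33e-05).

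Of the 10 collagen receptors and uptake genes, 3 of 5 tested were higher and 1 lower in Ai47 aSMCs than in cortex (33.6% and 25.0% of all genes), and 4 of 8 were higher in Ai14 aSMCs (3.97% of all genes). Itga1 and Itgb1, which pair as a collagen receptor, averaged 232 and 133 CPM in Ai47 aSMCs, 575 and 482 CPM in Ai14 aSMCs, 0.492 and 49.7 CPM in astrocytes, and 43.8 and 49.4 CPM in cortex. Both were higher than cortex in Ai47 aSMCs (log2 fold changes 2.48 and 1.503, SE 0.32 and 0.35, edgeR adjusted p = 5.54e-06 and 0.00158), and Itga1 was lower in astrocytes (-6.50, SE 0.69, adjusted p = 2.2e-06). Ddr2, a receptor kinase for fibrillar collagen, averaged 82.0 CPM in Ai47 aSMCs, 88.6 CPM in Ai14 aSMCs, 1.38 CPM in astrocytes and 10.5 CPM in cortex (3.03 in Ai47 aSMCs, SE 0.63, adjusted p = 0.000592). Lair1, an inhibitory collagen receptor of immune cells, was lower in Ai47 aSMCs, with 1.58 CPM, than in cortex, with 27.6 CPM (-4.05, SE 0.61, adjusted p = 2.5e-05). The 9 microglial markers summed to 1.93 to 5.27 CPM in Ai47 aSMCs and to 158 to 1555 CPM in cortex, and their part in the Lair1 difference was not tested. Of the genes named from the 6 lists, P4hb, Aspn, Adamts14, Itga1 and Ddr2 kept their Ai47 call over cortex in every setting run. All other calls of named genes were lost with the Ai47 libraries entered as 1. Library totals alone lost those of P4ha1, P3h3, Mia3, Sec23a, Pcolce, Loxl2 and Itgb1. Those of P4ha1 and Sec23a were also lost with 17 libraries in 1 fit.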

How the data were processed

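RNA was sequenced from 17 samples, grouped by the reporter, genotype and tissue in their labels. The authors deposited 1 table of raw read counts by gene symbol, which was not normalized. TopHat for alignment, htseq-count for counting and FastQC for quality control are named in the methods of the study, while the submitters' processing notes name Trim Galore 0.6.7, FastQC 0.11.9, MultiQC 1.13, Salmon 1.4.0 and GRCm38. No source used here states the strand setting or annotation release. The methods describe 1 aSMC line and cortex only, and a legend names the other reporter for the 6 EGFP+ samples, for which the labels were followed.

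Counts were tested with edgeR 4.0.16 in R 4.3.3 (quasi-likelihood F test, TMM, filterByExpr with a minimum count of 10 and a total of 15, Benjamini-Hochberg adjustment over all genes, threshold 0.05). Ai47 aSMCs and cortex were fitted on 12 libraries (11548 genes), the other contrasts on all 17 (14927 genes). Tests were checked on counts simulated with the same spread for all genes and without genes at low counts. This check does not cover groups without counts or the uneven counts of the Ai47 libraries. Exon lengths and positions came from GENCODE M21 (GRCm38), promoter sequences from RefSeq (GRCm38.p6). A group without counts was set to 3 counts over the group, and ratios to 1 to 3 counts carry exact 95% intervals, which cover counting error only.

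Per-sample values are given for collagens with a mean of at least 10 CPM in any group. Of each pathway list, the 2 genes highest in Ai47 aSMCs and the 2 with the largest change among those called are named. Members and lists were chosen with earlier results of these data known. Alternatives were DESeq2 1.42.0, its size factors, library totals alone, no filter, mitochondrial genes removed, 17 libraries in 1 fit, a replicate block, leaving out each library or cortex replicates 1 and 2, and the 6 Ai47 libraries as 1. Fitting astrocytes and cortex alone was added after seeing the data.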

Additional observations from a re-analysis of the deposited data

Results flagged for a closer look

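In 5 of 28 sets of values examined, each a collagen in the 6 libraries of a group, 1 library lay far from the others by Dixon's 95% limit, which chance passes in about 1 of 20 sets. Col1a2 stood at 194.6 CPM in Ai47 replicate 3. Col4a4 stood at 78.0 CPM in Ai47 replicate 2. Col14a1 stood at 9.82 CPM in Ai47 replicate 6 and at 5.16 CPM in cortex replicate 5. Col4a1 stood at 47.5 CPM in cortex replicate 1.

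For 5 of the 30 collagens tested, the Ai47 and Ai14 aSMCs differed by the edgeR test of that difference. Of all genes tested, 9.55% were higher and 16.0% lower in Ai47 aSMCs, so such differences were not more common among collagens. The log2 fold changes of Ai47 over Ai14 aSMCs were 9.76 for Col1a1, 6.82 for Col4a3, -2.98 for Col4a2, -5.68 for Col28a1 and -6.42 for Col15a1. The last is a fitted value of a gene without counts in Ai47 aSMCs and is no bound.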

How the results depend on the processing

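No collagen that passed the threshold changed sign under any alternative run. The counts of members that follow stand beside changes over all genes. In Ai47 aSMCs over cortex, 4697 of 20214 genes were lower without a filter. With DESeq2, 1600 of 14927 genes were lower in Ai14 aSMCs over cortex and 3616 of 14927 in astrocytes over cortex. With astrocytes and cortex alone, 2030 of 12001 were lower, and 852 of 12001 with the block. In Ai47 aSMCs over cortex, the 11 higher members became 6 with the Ai47 libraries as 1 library, 5 with library totals alone and 10 to 13 with 1 library left out, and the 0 lower became 5 with 17 libraries in 1 fit, 8 without a filter and 0 to 3 with 1 left out. In Ai14 aSMCs over cortex, the 8 higher became 3 with the Ai47 libraries as 1, 4 without cortex replicates 1 and 2, 5 without a filter and 0 to 5 with 1 library left out, and the 0 lower became 3 with DESeq2 and stayed 0 to 0 with 1 left out. In astrocytes over cortex, the 1 higher (Col8a2) became 0 with these groups alone and 0 with them and the replicate block, where it did not pass the filter, 2 with library totals, 2 without a filter and 1 to 2 with 1 left out, and the 9 lower became 14 with DESeq2, 4 with these groups alone, 1 with the block and 7 to 12 with 1 left out. In Ai47 over Ai14 aSMCs, the 2 higher became 1 with the Ai47 libraries as 1 and 1 to 2 with 1 left out, and the 3 lower became 0 with the Ai47 libraries as 1, 14 with library totals and 0 to 3 with 1 left out.

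Values that changed sign, none past the threshold as reported, were as follows. In Ai47 aSMCs over cortex, Col4a2 became -1.28 and Col14a1 -0.14 with library totals, and Col14a1 -1.61 with the replicate block. In astrocytes over cortex, Col4a5 became 1.03 without cortex replicates 1 and 2 and 0.83 with library totals, and Col8a1 -0.074 with the block. In Ai47 over Ai14 aSMCs, library totals gave -1.997 for Col1a2, which then passed the threshold (edgeR adjusted p = 0.0325), and -1.82 for Col27a1, Col4a5 became 0.043 with the Ai47 libraries as 1, and Col8a2 became 0.37 with DESeq2, 0.37 with its size factors, 0.47 with the Ai47 libraries as 1, 0.37 without cortex replicates 1 and 2, 0.51 without mitochondrial genes and 0.34 without a filter. With 1 library left out, Col4a2 ranged between -0.10 and 0.67 in Ai47 aSMCs over cortex, Col1a1 between -0.49 and 0.92 in Ai14 aSMCs over cortex, Col4a5 between -7.30 and 0.46 and Col8a1 between -0.66 and 1.81 in astrocytes over cortex, and Col4a5 between -0.62 and 0.10 and Col8a2 between -0.038 and 0.94 in Ai47 over Ai14 aSMCs. The cause of these changes was not tested.

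Same-numbered samples did not deviate together (correlations -0.05 to 0.03). Sorted cells and cortex of 1 animal need not deviate together, so this cannot decide whether the numbers pair them. The replicate block left 9 members higher in Ai47 aSMCs over cortex, without Col3a1 and Col5a2, and 0 lower. Library totals alone shifted the median log2 fold change of all genes by -1.45 for Ai47 aSMCs over cortex, 0.86 for Ai14 aSMCs over cortex, 0.88 for astrocytes over cortex and -2.18 for Ai47 over Ai14 aSMCs. The share of higher among all called genes moved to 33.9%, 90.4%, 60.8% and 7.48% in these comparisons, beside 57.3%, 66.6%, 42.4% and 37.3% as reported. DESeq2 gave 24.0% and its size factors 49.6% for Ai14 aSMCs over cortex, and for Ai47 over Ai14 aSMCs DESeq2 gave 57.0% and removal of mitochondrial genes 49.1%. Only 2 Ai14 libraries were present, and the cortex and astrocyte libraries had at most 7390630 counts, so that collagens under about 1 CPM were seen as a few counts there.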
